A study of Homo sapiens with 6 samples.

Results

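The histone genes were taken as every gene symbol of the array's annotation that names an H1, H2A, H2B, H3 or H4 histone, counting only probe sets annotated to a single symbol. A probe set is the group of oligonucleotides on the array that reads a transcript. The rule found 77 genes of 18132 measured, read by 134 probe sets, and the brightest probe set of each gene by its mean over the 6 arrays stood for the gene. By symbol, 62 were replication-dependent genes of the histone clusters, 12 were replacement variants, and 3 were other transcripts (the pseudogenes H1-9P and H2BC20P and the antisense transcript H1-10-AS1). The rule uses symbols and brightness over all arrays, not the difference between groups.

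The arrays compared A375 cells, a human melanoma line, without a knockdown (control, 3 arrays) with A375 cells that stably carry a short hairpin RNA against the kinase gene MAP4K5 (knockdown, 3 arrays). Both groups grew in the same serum-supplemented medium without treatment. The labels call all 6 biological replicates without saying whether they were separate cultures, so the p-values rest only on how far these arrays differ, which may be technical. A control vector, the number of clones in the knockdown line and scan dates were not given in the sources used here. Loss of MAP4K5 therefore cannot be told apart from other effects of the hairpin or of selecting a stable line. Values are RMA intensities, a background-corrected and quantile-normalized brightness with no absolute unit.

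MAP4K5 measured 77.7, 78.1 and 76.3 in control and 19.7, 18.8 and 20.3 in knockdown replicates 1, 2 and 3, as the labels say. Array medians lay between 4.85 and 4.94. Control replicate 2 stood apart. Over all genes it correlated at 0.993 to 0.994 with the knockdown arrays and at 0.992 with the other controls, which correlated with each other at 0.997, so its value is given beside each result. Of the melanocyte and melanoma markers, MITF, SOX10, S100B, MIA and CSPG4 were read well above the median gene (8.82 in intensity) in every array. The pigment genes MLANA, PMEL, TYR and TYRP1 stayed between 2.34 and 3.90. S100A1, which is not a pigment gene, was also below the median gene, at 4.43 to 5.74 over the 6 arrays. The 10 measured markers of this list summed to 508 to 716 per control array and 439 to 466 per knockdown array, and by limma 1 rose and 3 fell (3.7% and 4.13% of all genes did). S100B kept its call in every fit without 1 array, MIA and SOX10 kept theirs only without control replicate 2 (log2 -1.05 and -0.66), and MITF lost its call without any 1 knockdown array (log2 0.97 to 1.01). Of 12 measured markers of leukocytes, epithelium, endothelium and fibroblasts 0 were called (2 at an unadjusted p under 0.05). Their sums, control before knockdown, were 7.01 to 7.63 and 7.54 to 7.77 for leukocytes, 7.89 to 8.21 and 7.5 to 8.80 for epithelium, 12.4 to 13.6 and 13.9 to 16.6 for endothelium and 14 to 16.1 and 12.4 to 13.6 for fibroblasts, each over 3 markers. VWF (6.66 to 9.94) and PDGFRB (5.35 to 8.56) made up the largest part of the endothelial and fibroblast sums. PTPRC, EPCAM and PECAM1 stayed between 2.06 and 3.94.

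Histones package DNA into nucleosomes. The replication-dependent genes lie mostly in clusters, have no introns in their main transcript, and are transcribed mainly in S phase, when new DNA needs new nucleosomes. Their usual mRNA ends in a stem-loop in place of a poly(A) tail, although some of them also give polyadenylated transcripts in cells that divide slowly or differentiate. Replacement variants are expressed through the cell cycle, mostly from polyadenylated mRNAs. Labelling that starts from oligo(dT) reads the polyadenylated forms, but how the labelling was primed was not given in the sources used here.

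Of the 77 members, 68 had a promoter entry in the RefSeq table (build GRCh38.p14). The 250 bases before the start are printed for the 5 replication-dependent genes that rose, 5′ to 3′ on the strand of the gene, because these are the genes on which the comparison turns. Capitals mark the TATA box, searched as TATAAA, the CCAAT box, searched by the letters of its name, and the octamer, searched as ATTTGCAT, each on either strand. No match of one motif overlapped a match of another, although in H2BC12 a TATA match overlapped its own reverse. H2BC5 and H2BC12 had 2 entries each, of which the one listed first is shown. The windows are chr6:26157871-26158120 on the plus strand for H2BC5, chr6:27146859-27147108 on the minus strand for H2BC12, chr6:26056471-26056720 on the minus strand for H1-2, chr6:26123922-26124171 on the plus strand for H2AC6 and chr1:149886683-149886932 on the minus strand for H2BC21.
H2BC5: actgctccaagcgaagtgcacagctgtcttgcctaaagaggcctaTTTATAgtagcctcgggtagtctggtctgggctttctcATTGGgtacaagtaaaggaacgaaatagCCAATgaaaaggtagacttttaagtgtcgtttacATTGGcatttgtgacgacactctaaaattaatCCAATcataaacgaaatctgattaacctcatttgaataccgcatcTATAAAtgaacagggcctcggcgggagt
H2BC12: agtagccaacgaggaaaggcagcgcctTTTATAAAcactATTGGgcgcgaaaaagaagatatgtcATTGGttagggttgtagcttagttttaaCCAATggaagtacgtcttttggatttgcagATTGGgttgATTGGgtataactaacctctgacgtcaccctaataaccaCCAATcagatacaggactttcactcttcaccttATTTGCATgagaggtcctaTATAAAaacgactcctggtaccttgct
H1-2: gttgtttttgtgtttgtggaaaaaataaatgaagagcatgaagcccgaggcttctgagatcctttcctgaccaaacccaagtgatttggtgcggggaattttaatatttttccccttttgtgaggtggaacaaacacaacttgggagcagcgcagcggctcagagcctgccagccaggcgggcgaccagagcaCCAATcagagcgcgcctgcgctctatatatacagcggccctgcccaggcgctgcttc
H2AC6: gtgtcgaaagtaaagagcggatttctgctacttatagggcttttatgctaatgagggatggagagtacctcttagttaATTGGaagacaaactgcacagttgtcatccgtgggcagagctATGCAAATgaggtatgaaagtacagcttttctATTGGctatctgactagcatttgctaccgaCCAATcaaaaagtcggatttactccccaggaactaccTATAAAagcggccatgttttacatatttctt
H2BC21: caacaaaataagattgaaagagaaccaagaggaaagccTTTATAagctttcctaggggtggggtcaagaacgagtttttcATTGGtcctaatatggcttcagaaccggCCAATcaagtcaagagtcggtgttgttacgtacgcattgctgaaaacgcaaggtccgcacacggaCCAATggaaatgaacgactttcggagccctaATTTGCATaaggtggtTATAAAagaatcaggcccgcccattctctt

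A CCAAT match lay in all 5 windows, the nearest beginning 57 to 79 bases before the start. TATAAA was in the 4 other than that of H1-2, beginning 27 to 31 bases before the start. The octamer, the binding motif of POU2F1 that is known from H2B promoters, began 46 bases before the start in H2BC12 and H2BC21 and 130 bases before it in H2AC6, where it reads on the opposite strand. Neither H2BC5 nor H1-2 held it. The same letters were common across the clusters. Of the 52 replication-dependent genes with an entry that were not called, 45 held CCAAT, 34 held TATAAA and 23 held the octamer (86.5%, 65.4% and 44.2%). Of all 27305 genes with an entry, the shares over windows of the same length were 37.0% for CCAAT, 13% for TATAAA and 2.03% for the octamer. In all these shares a gene with several entries counted if any of its windows held the letters. Within the replication-dependent genes the octamer was found in 14 of 18 H2B and 11 of 14 H2A promoters, in 1 of 9 H3 promoters, and in 0 of 6 H1 and 0 of 10 H4 promoters. Where an H2A and an H2B gene start close together on opposite strands, their windows can overlap. The same match can then be counted for both genes. A match describes letters in the window and does not show binding.

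The main difference was a rise of a few replication-dependent genes in knockdown cells. The nucleosome core genes H2BC5, H2BC12, H2AC6 and H2BC21 and the linker histone gene H1-2 were called by limma (adjusted p under 0.05 over all genes). No replication-dependent gene was called lower. That is 5 of 62 higher, or 8.06%, beside 3.7% of all genes tested, and 0 of 62 lower beside 4.13%. At an unadjusted p under 0.05 the counts were 16 higher and 0 lower of 62, where 12.4% of all genes were higher and 11.1% lower. In RNA of whole cultures, more cells that transcribe a gene and more RNA per cell cannot be told apart. A change in the share of polyadenylated forms was not tested.

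H2BC5, an H2B gene, measured 8.26, 11.5 and 8.59 in control and 36.3, 34.0 and 37.9 in knockdown replicates 1, 2 and 3. The groups did not overlap, and control replicate 2 was the highest control. The means were 9.44 ± 1.77 and 36.1 ± 1.98 (SD, n = 3 each), a 3.86-fold rise (log2 1.95 ± 0.13 SE, limma adjusted p = 0.000312). With an offset of 16 added before taking logs, which damps differences between dim values, it was 1.03 and still called. All 3 of its probe sets rose in the test per probe set, by 1.95, 1.77 and 1.19 on the log2 scale.

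H2BC12, another H2B gene, measured 69.1, 63.4 and 73.7 in control and 253.4, 246.3 and 245.6 in knockdown cells. Every knockdown array was above every control, and control replicate 2 was the lowest of the 6. The means were 68.7 ± 5.17 and 248.4 ± 4.33 (SD, n = 3 each), a 3.62-fold rise (log2 1.86 ± 0.09 SE, limma adjusted p = 5.72e-05). Its second probe set stayed near the lowest intensities, at 2.81 ± 0.132 and 3.06 ± 0.484 (SD, n = 3 each), and was not called.

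H1-2, a linker histone that binds the DNA entering and leaving the nucleosome, measured 26.9, 26.7 and 30.3 in control and 103.2, 93.6 and 99.3 in knockdown cells. The groups were far apart, and control replicate 2 lay beside control replicate 1. The means were 28 ± 2.04 and 98.7 ± 4.81 (SD, n = 3 each), a 3.53-fold rise (log2 1.82 ± 0.09 SE, limma adjusted p = 7.03e-05). Its only probe set ends in _x_at, a suffix for sets whose probes can bind related transcripts, so a share of the signal from paralogs was not tested.

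H2AC6, an H2A gene, measured 7.65, 6.57 and 6.71 in control and 15.9, 14.1 and 12.7 in knockdown cells. Again the groups did not overlap. The means were 6.98 ± 0.585 and 14.2 ± 1.58 (SD, n = 3 each), a 2.03-fold rise (log2 1.02 ± 0.11 SE, limma adjusted p = 0.00191), read by a single probe set whose suffix, _s_at, marks sets shared by several transcripts. H2BC21, an H2B gene of the chromosome 1 cluster, was dim, at 4.89, 4.13 and 4.49 in control and 7.83, 6.36 and 7.29 in knockdown cells. The means were 4.50 ± 0.378 and 7.16 ± 0.746 (SD, n = 3 each), a 1.59-fold rise (log2 0.67 ± 0.11 SE, limma adjusted p = 0.0104). Again every knockdown array was above every control. Both group means of H2BC21 lay below the median gene, and its other probe sets, which hold identical values to each other, gave 0.05. H2BC5, H2BC12, H1-2 and H2AC6 kept their calls in each of the 6 fits without 1 array, while H2BC21 lost its call without knockdown replicate 1 or 3 (log2 0.60 and 0.65, limma adjusted p = 0.0614 and 0.0576). Without control replicate 2, 9 of the 62 were called higher and 0 lower, in a fit in which 10.5% of all genes were called higher and 10.1% lower.

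**Figure D1:**
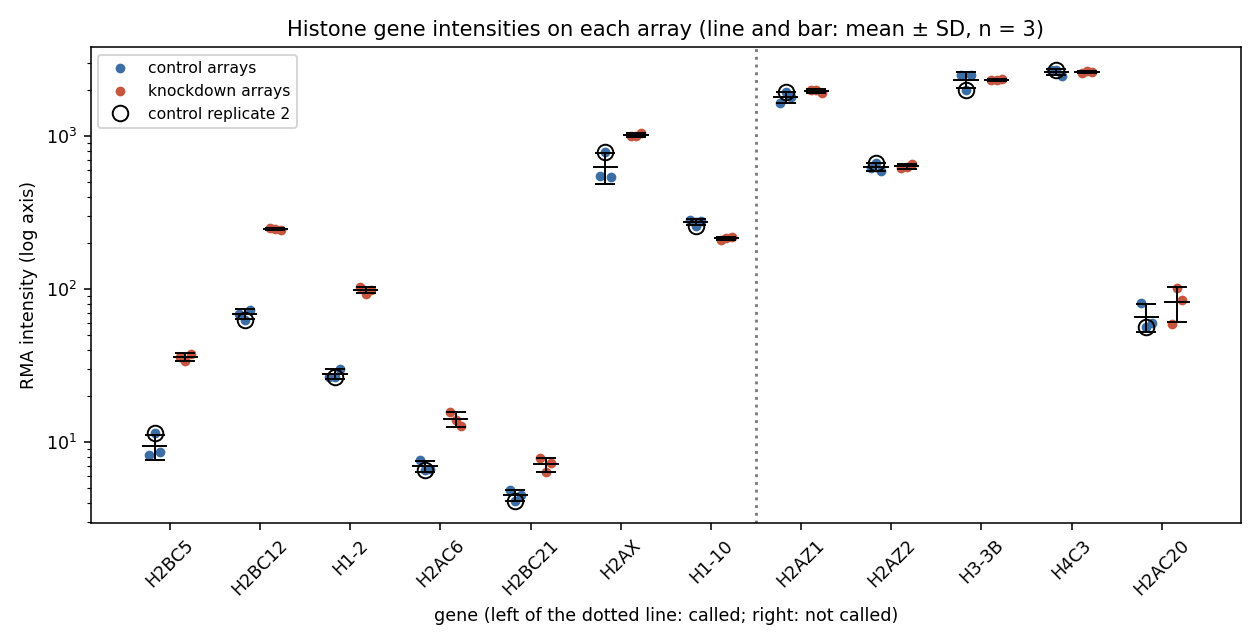
RMA intensity (log axis) of each array for the 7 called histone genes, left of the dotted line, and 5 bright histone genes that were not called, right of it. Points are arrays, lines and bars are the mean and SD of 3 arrays, and rings mark control replicate 2. H2BC5, H2BC12, H1-2, H2AC6 and H2BC21 are higher in every knockdown array, control replicate 2 is the control nearest to the knockdown arrays for H2AX and H1-10, and H4C3 and H3-3B overlap.

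H2AC18 and H2AC19, near-identical H2A genes of chromosome 1, were read by probe sets that carry both symbols and so fell outside the rule. At the brighter of these, intensities were 95.1, 64.8 and 112.0 in control and 281.0, 274.5 and 266.7 in knockdown cells. The 2 shared probe sets were higher by 1.63 ± 0.18 and 1.59 ± 0.15 (log2 ± SE, limma adjusted p = 0.00293 and 0.0014 over all probe sets). They cannot be assigned to either gene. Of all 15 histone probe sets with several symbols, these 2 were called higher, 0 were called lower and 13 were not called. The median log2 fold change of the 15 was 0.005. Among the 134 probe sets with a single symbol, 10 were called higher and 0 lower by limma over 49293 probe sets, where 1.98% of all were called higher and 2.46% lower. At an unadjusted p under 0.05, 24 were higher and 2 lower, beside 9.75% and 9.74% of all probe sets.

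**Figure D2:**
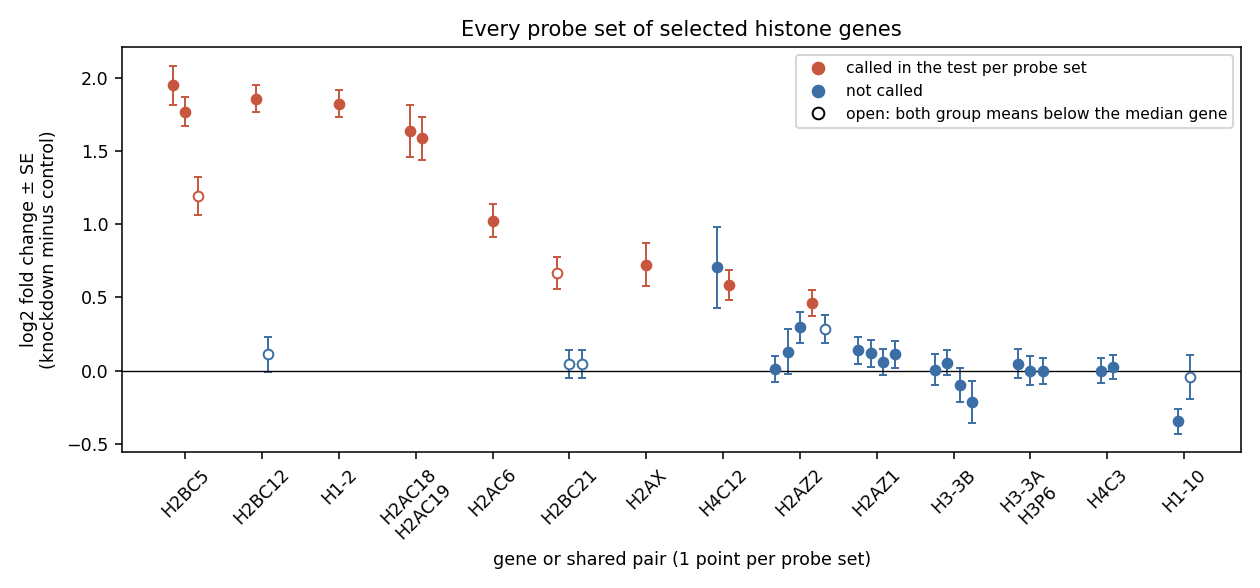
Log2 fold change (knockdown minus control, ± SE of the limma fit) of each probe set for selected histone genes and for the pairs H2AC18 with H2AC19 and H3-3A with the pseudogene H3P6, which share probe sets. Red marks probe sets called at an adjusted p under 0.05 over all probe sets, and open symbols mark those with both group means below the median gene. All 3 probe sets of H2BC5 rose, 1 of 2 for H2BC12 and 1 of 3 for H2BC21, while those of H3-3B and H4C3 lay between -0.21 and 0.06.

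The other 57 replication-dependent genes were not called. For 53 of them both group means lay below the median gene, so most of the class was read near the lowest intensities of the array, where RMA compresses fold changes. The part of the missing poly(A) tail in these low values was not tested. Their median group means were 2.69 in control and 2.94 in knockdown cells. Across all 62 the log2 fold change ranged from -0.18 to 1.95 with a median of 0.12, against a median of 0.01 over all genes. It was above 0 in 48 and below 0 in 14.

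The groups did not overlap, with knockdown higher, in 20 of the 62 (32.3%, beside 14.9% of all genes), and with knockdown lower in 1 (1.61%, beside 13.2%). The 1 was H2AC12, at 2.57 ± 0.0353 in control and 2.27 ± 0.149 in knockdown arrays (SD, n = 3 each). Among the 15 that were higher without overlap but not called were the H2A genes H2AC8 (log2 0.56 ± 0.18 SE, limma adjusted p = 0.104) and H2AC11 (0.47 ± 0.16, adjusted p = 0.121) and the H2B genes H2BC4 (0.35 ± 0.09, adjusted p = 0.0566) and H2BC8 (0.29 ± 0.08, adjusted p = 0.0763), all named after their values were seen and all with both means below the median gene. The second probe sets of H2AC8, H2AC11, H2BC4 and H2BC8 gave 0.22, -0.11, 0.15 and 0.09 on the log2 scale. None of them was called in the test per probe set, and only that of H2AC8 was without overlap. With the same offset of 16 the median of the 62 was 0.017. With the dimmer 50% of all genes left out it was 0.86, over 8 remaining genes, some of which stay through the group in which they are high.

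**Figure D3:**
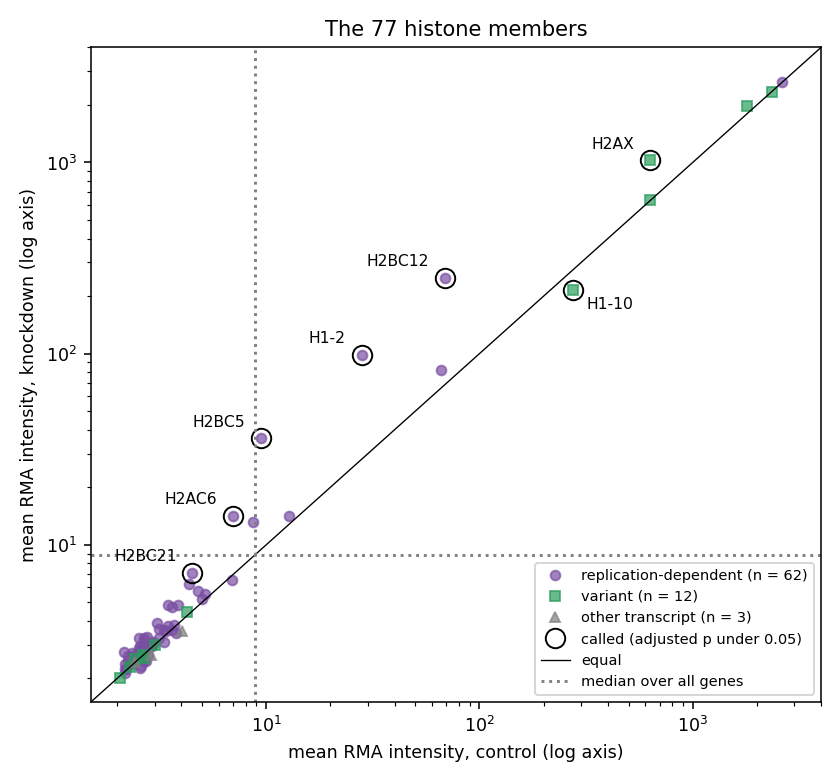
Mean RMA intensity in control (x) and knockdown (y) arrays, both on log axes, for all 77 members by class, with the line of equal levels and the median over all genes (8.82) dotted. Most replication-dependent genes crowd the lower left corner, the called genes (rings) other than H1-10 lie above the line, and the variants other than H2AX and H1-10 lie along it.

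By family, H2B had 3 of 18 replication-dependent genes called higher and a median log2 fold change of 0.13. H2A had 1 of 15 (median 0.14), H1 had 1 of 6 (median 0.13), and H3 and H4 had 0 of 11 and 0 of 12 (medians 0.05 and 0.10). In H3 and in H4, 2 genes each were higher at an unadjusted p under 0.05. The cluster H3 genes, which encode the replication-coupled H3 of the nucleosome core, were all dim. H3C8 measured 4.89, 5.09 and 4.41 in control and 6.59, 5.37 and 5.27 in knockdown cells, without overlap but not called (log2 0.25 ± 0.11 SE, limma adjusted p = 0.215). H3C7 measured 4.63, 5.05 and 5.27 in control and 5.49, 5.05 and 5.0 in knockdown cells, and overlapped (0.06 ± 0.09).

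H4C3 was the H4 gene read far above the median gene. It measured 2713, 2696 and 2492 in control and 2576, 2680 and 2635 in knockdown cells, and its groups overlapped (log2 -0.00 ± 0.08 SE, limma adjusted p = 0.996). Its second probe set gave 0.02 ± 0.08. These sets end in _x_at and _s_at, so a share of the signal from related transcripts was not tested. H4C12 measured 4.77, 11.4 and 9.74 in control and 13.4, 13.3 and 12.9 in knockdown cells. The groups did not overlap, with control replicate 1 well below the other controls, and the gene was not called (0.70 ± 0.28, adjusted p = 0.170), although its second probe set was (0.58 ± 0.10, limma adjusted p = 0.0198 over all probe sets).

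Among the H2A and H1 genes that were not called, H2AC20 measured 81.7, 56.6 and 60.0 in control and 59.5, 101.8 and 84.8 in knockdown cells, so its groups overlapped (log2 0.30 ± 0.21 SE, limma adjusted p = 0.448). H2AC25 measured 12.3, 7.76 and 18.3 in control and 13.1, 15.0 and 14.4 in knockdown cells, so that the controls spanned all knockdown arrays. The linker histone gene H1-4 overlapped at 9.67, 5.40 and 5.69 in control and 5.33, 7.45 and 6.95 in knockdown cells (-0.04 ± 0.22), where control replicate 1 was the highest. H1-3 overlapped at 4.56, 5.05 and 5.87 against 5.09, 5.50 and 6.07 (0.11 ± 0.12). The H2B gene H2BC26 overlapped at 3.52, 4.19 and 3.58 against 3.92, 3.29 and 3.21 (-0.12 ± 0.11). Its second probe set went the other way, at 0.34 ± 0.17 without overlap, and was not called in the test per probe set. H2BC15, another H2B gene, was higher without overlap at 3.26, 4.12 and 4.24 against 4.84, 4.88 and 4.81 and was not called (0.33 ± 0.11, adjusted p = 0.112).

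Along chromosome 6 the genes that rose were scattered among neighbours that were not called. In the RefSeq order of 55 protein-coding histone genes there, H1-2 stood at place 11, H2AC6 at 15, H2BC5 at 17 and H2BC12 at 37. H4C3, which was not called, lies directly beside H1-2 at place 12, and H1-4 lies between H2AC6 and H2BC5. In all, 4 of the 54 replication-dependent members on chromosome 6 and 1 of the 7 on chromosome 1 rose.

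Many H2A and H2B genes are transcribed away from each other from a shared promoter region. Among members, 13 pairs of any family that are transcribed away from each other had starts less than 1000 bases apart, and in 2 of these a member rose. H2AC6 and H2BC4 start 246 bases apart, so that the sequence printed for H2AC6 also lies before H2BC4. Their log2 fold changes were 1.02 and 0.35, and H2BC4, read at 2.06 to 2.23 in control and 2.48 to 2.95 in knockdown cells, was not called. H2BC21 and H2AC20 start 236 bases apart, with fold changes of 0.67 and 0.30. The difference within a pair was not tested, and the members of a pair are read by different probe sets.

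**Figure D4:**
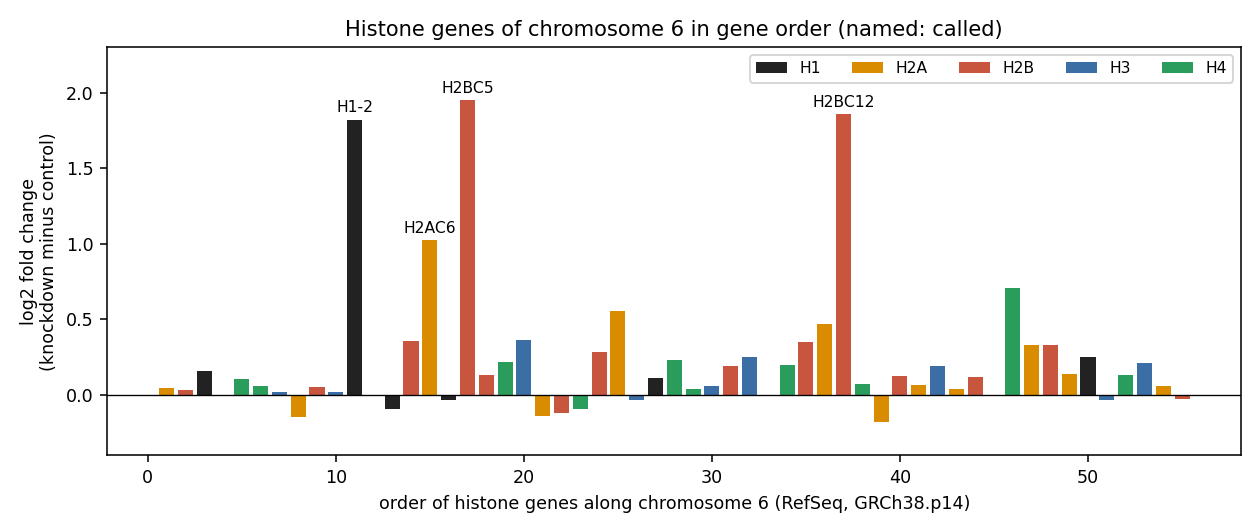
Log2 fold change (knockdown minus control) of the measured histone genes of chromosome 6, in the order in which RefSeq places them, coloured by family. Bars start at 0 and the 4 called genes are named. H1-2, H2AC6 and H2BC5 stand at places 11, 15 and 17, and H2BC4 (0.35) and genes near 0 lie between them, and H2BC12 stands apart.

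The variants showed no common direction. Their median log2 fold change was 0.00 over 12 genes, with 6 above 0 and 6 below. Of the 12, 1 was called higher (8.33%, beside 3.7% of all genes) and 1 lower (8.33%, beside 4.13%). With so few genes each share rests on a single gene, and both calls depended on the arrays used.

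H2AX, the variant whose phosphorylated tail marks DNA breaks and whose gene gives both stem-loop and polyadenylated mRNA, was the one that rose. It measured 553.8, 794.9 and 540.6 in control and 1004, 1013 and 1056 in knockdown cells. The groups did not overlap, but control replicate 2 lay between the other controls and the knockdown arrays. The rise was 1.65-fold (log2 0.72 ± 0.15 SE, limma adjusted p = 0.0243). Against control replicate 2 alone the difference was 0.36, and the call was lost without control replicate 1 or 3 or any 1 knockdown array (0.63 to 0.90 over the 6 fits, adjusted p up to 0.0992).

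H1-10, a linker histone variant, was the member that fell. It measured 283.3, 260.3 and 278.6 in control and 210.3, 216.8 and 219.4 in knockdown cells. Every knockdown array was below every control, by 1.27-fold between the means (log2 -0.35 ± 0.08 SE, limma adjusted p = 0.0356). The call was kept in a single fit without 1 array, that without control replicate 2 (-0.38 to -0.32 over the 6 fits, adjusted p up to 0.147). It was also lost with the replicate number as a block (adjusted p = 0.0748). Its second probe set, at 4.83 ± 0.282 and 4.76 ± 1.09 (SD, n = 3 each), gave -0.04, and in the test per probe set the brighter one was not called either (limma adjusted p = 0.0553 over all probe sets).

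The genes H2AZ1 and H2AZ2, whose products sit in nucleosomes at promoters, were bright and not called. H2AZ1 measured 1640, 1960 and 1805 in control and 2006, 2011 and 1917 in knockdown cells, and overlapped through control replicate 2 (log2 0.14 ± 0.09 SE, limma adjusted p = 0.419). H2AZ2 measured 623.6, 673.8 and 597.4 in control and 620.5, 628.6 and 657.4 in knockdown cells (0.01 ± 0.08, adjusted p = 0.960). Of its 5 probe sets 1 was called higher, at 0.46 ± 0.09 (limma adjusted p = 0.0274 over all probe sets), and the others gave 0.01 to 0.30.

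The replacement H3 genes H3-3A and H3-3B encode the same protein, which is placed into chromatin also outside S phase. H3-3B measured 2502, 2023 and 2502 in control and 2320, 2318 and 2380 in knockdown cells, with control replicate 2 the lowest (log2 0.01 ± 0.10 SE, limma adjusted p = 0.984). For H3-3A the probe set with a single symbol was read at 2.01 to 2.58 on all arrays. The 3 bright sets that it shares with the pseudogene H3P6 measured 1411 to 2249 as group means, and gave -0.00 to 0.05. The remaining variants H1-7, H1-8, H2AJ, H2AP, H2BW1 and H3-5 were all below the median gene and not called, as were the 3 other transcripts. Of these 6, H2BW1 was the one without overlap (2.71, 2.70 and 2.62 in control against 2.55, 2.58 and 2.56). H1-7 and H1-8, linker histones known from germ cells, overlapped, at 3.8 to 4.82 in control and 4.13 to 4.64 in knockdown arrays and at 2.33 to 2.96 and 2.41 to 2.85.

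The machinery that makes and places histones was described by lists written from general knowledge. Of 19 measured genes for transcription and processing of histone mRNA, 1 rose and 0 fell by limma (5.26% and 0%, near the 3.7% and 4.13% of all genes), with a median log2 fold change of 0.04. At an unadjusted p under 0.05, 3 were higher and 1 lower, beside 12.4% and 11.1% of all genes. The riser was CDK2, the kinase that with cyclin E switches on histone transcription through NPAT. It measured 49.1, 76.8 and 64.4 in control and 103.6, 99.5 and 89.4 in knockdown cells (0.64 ± 0.16 SE, adjusted p = 0.0438). Its call was kept without control replicate 2 and lost without any other array (0.47 to 0.79 over the 6 fits, adjusted p up to 0.168). NPAT itself was not called (0.08 ± 0.11). SLBP, which binds the histone stem-loop, measured 166.2, 274.7 and 168.1 in control and 209.7, 194.5 and 187.0 in knockdown cells, with control replicate 2 above all other arrays (-0.00 ± 0.18).

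Of 30 chaperone and deposition genes 2 rose and 0 fell by limma (6.67% and 0%, beside 3.7% and 4.13% of all genes), with a median of 0.08. At an unadjusted p under 0.05, 9 were higher and 1 lower, beside 12.4% and 11.1%. ASF1B, a chaperone that hands new H3 and H4 to the replication fork, measured 16.9, 40.4 and 22.2 in control and 58.5, 56.8 and 55.1 in knockdown cells. It rose by 1.20 ± 0.27 (log2 ± SE, limma adjusted p = 0.0335), with control replicate 2 between the groups. DNAJC9, an H3 and H4 co-chaperone, measured 151.0, 153.7 and 150.0 in control and 201.2, 184.3 and 200.3 in knockdown cells (0.36 ± 0.08, adjusted p = 0.0308), and here control replicate 2 lay with the other controls. Both calls were kept without control replicate 2 and lost without any other array, at 0.92 to 1.55 for ASF1B and 0.34 to 0.41 for DNAJC9 over the 6 fits (limma adjusted p up to 0.133 for each). The variants outside the symbol rule, MACROH2A1, MACROH2A2 and CENPA, were not called (0.22, 0.06 and -0.26). Of these 3, 0 passed an unadjusted p under 0.05.

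The level of S phase transcripts differed between the controls. Over 26 S phase and DNA replication genes, the mean log2 level relative to the mean of all arrays was -0.37 and -0.34 in controls 1 and 3, 0.19 in control replicate 2 and 0.15 to 0.19 in the knockdown arrays. By limma 3 rose and 1 fell (11.5% and 3.85%, beside 3.7% and 4.13% of all genes), and 13 were higher and 1 lower at an unadjusted p under 0.05 (12.4% and 11.1% of all genes). In 11 of the 26 the groups did not overlap, with knockdown higher (42.3%, beside 14.9% of all genes). E2F2, CDT1 and GINS3, which rose, kept their calls only without control replicate 2 (log2 0.75, 0.48 and 0.60). PRIM1, which fell, lost its call without control replicate 1 or knockdown replicate 1 or 2 (log2 -0.44, -0.41 and -0.43). For the replication-dependent histone genes, most with both group means below the median gene, the same mean level was -0.10, -0.11 and -0.13 in controls 1, 2 and 3. It was 0.09 to 0.15 in the knockdown arrays. This mean is over all 62 genes and includes the 5 that were called. The median over the 62 was smaller, at -0.04, -0.05 and -0.08 in controls 1, 2 and 3 and 0.02 to 0.11 in the knockdown arrays. Among called members, control replicate 2 was the control nearest to the knockdown arrays for H2AX, H2BC5 and H1-10, and the part of S phase activity in these results was not tested. Against control replicate 2 alone, H2BC12, H1-2, H2AC6 and H2BC21 differed by 1.97, 1.88, 1.11 and 0.79 on the log2 scale, no less than against all 3 controls. H2BC5 differed by 1.65, H2AX by 0.36 and H1-10 by -0.27, each less than against all 3 controls.

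**Figure D5:**
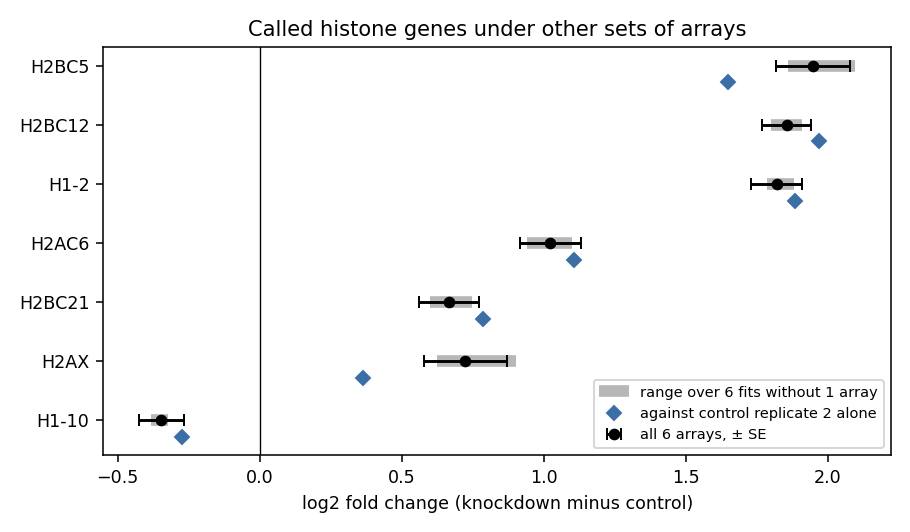
Log2 fold change (knockdown minus control) of the 7 called histone genes. Black points and bars give all 6 arrays with the SE of the limma fit, grey bands the range over 6 fits that each left out 1 array, and blue diamonds the difference of the knockdown mean from control replicate 2 alone, which has no test. H2AX drops from 0.72 to 0.36 against that array, and the other 6 genes keep most of their difference.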

How the data were processed

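Total RNA was measured on 6 Affymetrix arrays, 3 of control and 3 of MAP4K5 knockdown A375 cells, grouped by their titles. What the authors deposited is 1 linear intensity per probe set and array, made with RMA according to the submitters' processing notes (version not given in the sources used here). Log2 was taken with nothing added. Of the 49293 probe sets, 44988 had 1 gene symbol in the platform annotation. Of the probe sets naming a histone gene, 134 had 1 symbol and 15 several. Histone symbols checked through Entrez identifiers against RefSeq (GRCh38.p14) changed in 0 cases. A gene was read from its probe set of highest mean log2 value, without a filter on dim genes. Of the 77 members, 32 were read by a set ending in _x_at or _s_at, among them H4C3, H3-3B and H2AZ2. Coordinates are those of the RefSeq promoter table.

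Groups were compared with limma (version 3.58.1, R 4.3.3; lmFit, eBayes) and Benjamini-Hochberg adjustment over 18132 genes, or over all probe sets. The step was tested on simulated arrays. The number of arrays, 3 per group, limits the precision. The rule for naming took every called member and, per family and class, the 2 brightest that were not called. Members and lists were chosen with earlier results of these data known, so no test was made over a list. The rule for promoters named H2BC5, H2BC12 and H4C3. That of H4C3 is not shown, so the planned contrast with a gene that was not called was dropped, and those of the other 3 genes that rose were added after their values were seen. Protein sequences were not used here. The fits were repeated with a block for the replicate number, array weights, a variance prior that follows intensity, repeated quantile normalization, an offset of 16, leaving out the dimmer 50% of genes, averaging probe sets, leaving out sets ending in _x_at or _s_at, leaving out 4 germ-cell genes and leaving out each array. Tables and plots were made in Python 3.11.15 with pandas 2.3.3, numpy 2.4.6 and matplotlib 3.10.9.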

Additional observations from a re-analysis of the deposited data

Results flagged for a closer look

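A signal appeared in probe sets that the histone gene rule leaves out. The 2 probe sets annotated to both H2AC18 and H2AC19 were higher in all 3 knockdown arrays than in any control, by 1.63 and 1.59 on the log2 scale. Control replicate 2 was the lowest control at both. These 2 were flagged because they were called higher without overlap, and the other 13 histone probe sets with several symbols were not called. Of all 15, 3 were higher without overlap and 1 lower (20% and 6.67%, beside 14.9% and 13.2% of all genes). The same shares over all probe sets were not counted.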

How the results depend on the processing

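The replicate numbers did not pair the arrays: deviations of same-numbered arrays from their group means correlated at -0.08, 0.02 and 0.06. With the replicate block 6 of the 7 called members were called, H1-10 being lost, so that 0 variants were lower. The count of replication-dependent genes called higher was 10 with array weights. The share of all genes called in that fit was not counted, so the 10 cannot be set beside it. Over the fits without 1 array the count was 4 to 9. The 9 came without control replicate 2, where 10.5% of all genes were called higher. H2BC4, H2AC8, H2BC8 and H4C12 joined there. The count of variants called higher was 0 with the offset, and 0 to 1 over the fits without 1 array. The count of variants called lower was also 0 with averaged probe sets or without sets ending in _x_at or _s_at, and 0 to 1 over the fits without 1 array. The median log2 fold change of replication-dependent genes was 0.017 with the offset, 0.86 without the dimmer 50% of genes, 0.058 without sets ending in _x_at or _s_at and 0.077 to 0.147 without 1 array. That of the variants was -0.029 with array weights and -0.035 to 0.065 without 1 array. H2BC5, H2BC12, H1-2 and H2AC6 kept their calls under every alternative that could read them. H1-2 and H2AC6 had no value without sets ending in _x_at or _s_at, and H2BC5, H2AC6 and H2BC21 measured 1.03, 0.39 and 0.18 with the offset. Averaging probe sets gave 0.98 for H2BC12 and 0.25, not called, for H2BC21. H2BC21 was not among the genes kept without the dimmer 50%, and H2AX was not called with the offset (0.71, limma adjusted p = 0.059). Counting the shared histone probe sets as genes, chosen after seeing the data, raised the replication-dependent count to 6.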
